A study of Mus musculus with 35 samples.

Results

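The 10 genes described here, Fibcd1, Wfs1, Pou3f1, Bok, Spock1, Amigo2, Rgs14, C1ql2, Dsp and Kctd4, are transcripts used to tell the subfields of the mouse hippocampus apart. They were read by symbol from the 32544 gene rows of the deposited count tables, and all 10 were found. All 10 also passed the low-count filter in each comparison of kainic acid (KA) with PBS. Fibcd1, Wfs1 and Pou3f1 were taken as markers of CA1, Bok and Spock1 of CA3, Amigo2 and Rgs14 of CA2, and C1ql2 and Dsp of the dentate gyrus. Kctd4 was given no subfield. The libraries are of whole hippocampus, so where in the tissue a transcript was made could not be checked from them.

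The mice were male C57BL/6JOlaHsd animals 7 to 9 weeks of age with a cannula over the amygdala. The KA mice received kainic acid in PBS through it, which triggers status epilepticus (SE), and lorazepam by intraperitoneal injection after 40 minutes. The control mice received PBS in the amygdala. Hippocampi were collected at 24 h, the acute stage, or at 2 weeks, the chronic stage. From total hippocampal RNA of single mice, libraries were made of the total RNA (input) or of the RNA bound by an antibody against m6A, a methyl mark on adenosines. There were 5 KA and 3 PBS m6A libraries at 24 h and 6 KA and 5 PBS m6A libraries at 2 weeks. Input libraries of 100000 or more counts came from 3 KA mice and 1 PBS mouse at 24 h and from 6 KA and 3 PBS mice at 2 weeks.

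The hippocampus passes signals from the dentate gyrus through CA3 to CA1, with the small CA2 field between the last pair. Granule cells of the dentate gyrus send mossy fibres to CA3, and pyramidal cells of CA3 project to CA1. Seizures started by kainic acid are known to harm neurons of the CA fields and of the hilus, and granule cells are known to alter their gene expression afterwards. A marker read in bulk RNA follows both the number of cells that make it and the RNA each cell makes, and fewer cells and less RNA per cell cannot be told apart here. The m6A libraries measure how much of a transcript was pulled down, which follows its abundance as well as its methylation.

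Total counts per library ran from 1652933 to 34564536 in m6A and from 3057578 to 12694434 in the 13 input libraries used. Levels are given as CPM, the count scaled to a fixed library total, and 3 counts, the most that a count of 0 would allow, came to at most 1.81 CPM in these libraries. KA mouse 8 at 24 h stood apart in both assays. Its 8 excitatory neuron markers summed to 1143 CPM in input, against 1841 or more in the 12 other inputs, and to 1129 CPM in m6A, against 2187 or more in the 18 others. Lists of other cells were low too. In input the sum was 2244 CPM for neurons in general (3718 or more in the others) and 893 for astrocytes (2207 or more). It was 746 for oligodendrocytes (1436 or more). These lists were also the lowest in m6A. Mossy cell and endothelial markers were instead highest in this mouse in input, at 131 CPM (98 or less in the others) and 1219 CPM (1098 or less). Mitochondrial transcripts took 17.4% of the input counts of KA mouse 8. PBS mouse 1, the only PBS input at 24 h, was the highest of the 13 inputs in the summed level of 4 marker lists read alongside, with 518 CPM for CA1 (399 or less in the others), 691 for the dentate gyrus (629 or less), 6021 for neurons in general (5272 or less) and 714 for inhibitory neurons (559 or less). The m6A libraries carry a number in their column names, here called the library set, and it is not balanced over the groups. At 24 h, set 3 held KA mice 67, 98 and 8, set 4 held KA mice 97 and 79 with PBS mice 71 and 73, and set 5 held PBS mouse 1. At 2 weeks, set 3 held KA mice 42, 5 and 6, set 4 held PBS mice 50 and 78, and set 5 held KA mice 21, 7 and 9 with PBS mice 2, 3 and 4.

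No marker of the 10 passed an adjusted P of 0.05 between KA and PBS in edgeR's quasi-likelihood test, in either assay at either time. The test called few genes of any kind. It called 1 of 16470 genes in m6A at 24 h (0.00607%), 0 of 16157 in m6A at 2 weeks (0.0%), 0 of 18918 in input at 24 h (0.0%) and 0 of 13752 in input at 2 weeks (0.0%). DESeq2 called none of the 10 either. At an unadjusted P under 0.05, 4 of the 10 were lower with KA in m6A at 24 h (Kctd4, Dsp, C1ql2 and Bok), where 1.29% of all genes were lower by this rule. In input at 24 h there were 2 lower markers (Kctd4 and Dsp), against 0.798% of all genes. In input at 2 weeks 3 markers were higher (Bok, C1ql2 and Rgs14), against 8.41% of all genes, and 1 was lower (Kctd4), against 5.69%. In m6A at 2 weeks there was none in either direction. Of these 10 differences, 3 stayed past this rule whichever single library was left out (Kctd4 at 24 h in both assays and Bok in input at 2 weeks), although the input comparison at 24 h could not be made without PBS mouse 1. The other 7 did not. In m6A at 24 h Bok lost it without PBS mouse 71, Dsp without PBS mouse 71 or 73 or KA mouse 67 or 98, and C1ql2 without any of these or KA mouse 8. In input Dsp lost it at 24 h without KA mouse 98 and Kctd4 at 2 weeks without PBS mouse 3 or 4, while C1ql2 and Rgs14 at 2 weeks lost it without any of 6 libraries each, PBS mice 3 and 4 and KA mice 42, 9 and 6 in both, with KA mouse 21 for C1ql2 and PBS mouse 2 for Rgs14. The 24 h comparisons in both assays share KA mice 67, 98 and 8 and PBS mouse 1, so the input and m6A values for these genes do not come from separate animals.

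**Figure D1:**
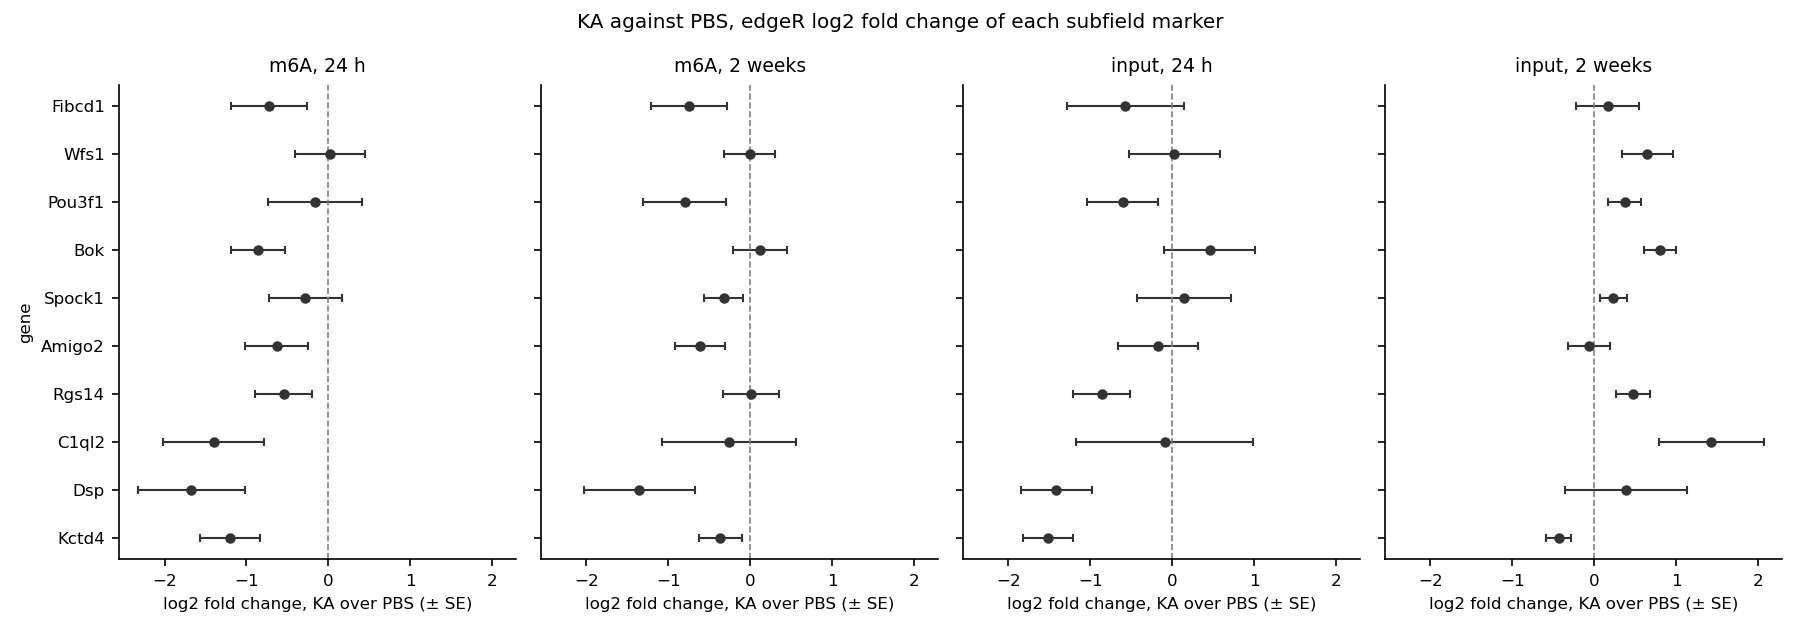
Log2 fold change of KA over PBS for each of the 10 markers (rows), with the standard error as bars, from edgeR's quasi-likelihood fit of each assay and time (panels). At 24 h Dsp and Kctd4 lie below 0 in both assays, Dsp at -1.67 in m6A and -1.41 in input and Kctd4 at -1.20 and -1.51. At 2 weeks in input, 8 of the 10 markers lie above 0.

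Kctd4, a member of the family of proteins with a potassium channel tetramerisation domain, gave the smallest P of the 10 in both assays at 24 h. In input its level was 53.0 CPM in PBS mouse 1 and 14.2, 16.6 and 14.9 CPM in KA mice 67, 98 and 8. The 3 KA libraries lay close together at 15.3 ± 1.26 CPM (SD, n = 3), with KA mouse 8 no lower than the others. The log2 fold change was -1.51 (SE 0.31, adjusted P = 0.991), with a single PBS library whose spread had to be taken from the KA libraries. In m6A at 24 h Kctd4 was at 86.2, 49.4 and 82.5 CPM in PBS mice 71, 73 and 1 and at 23.7, 19.4, 24.3, 53.6 and 33.5 CPM in KA mice 67, 98, 97, 79 and 8. Of the 5 KA libraries, only that of KA mouse 79 was above the lowest PBS library. The m6A log2 fold change was -1.20 (SE 0.37, adjusted P = 0.567), and within set 4 it was -0.90 (SE 0.42, adjusted P = 0.333).

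The Kctd4 difference at 24 h passed the threshold in some other fits of the same counts, but not with DESeq2 or, in m6A, within set 4. Without KA mouse 8, 1914 of 14733 genes were called in input, 859 of them lower (5.83%), among them Kctd4 (log2 fold change -1.59, adjusted P = 0.0047) and Dsp (-1.68, adjusted P = 0.0085), with 2 KA mice against 1 PBS mouse. With the PBS inputs of both times as controls, 3 of the 4 being 2-week mice, 15 of 14155 genes were lower (0.106%), among them Kctd4 (-1.59, adjusted P = 0.016). In m6A, limma voom with sample quality weights called 365 of 16470 genes lower (2.22%), among them Kctd4 (-1.42, adjusted P = 0.0084), Bok (-0.88, adjusted P = 0.034) and Dsp (-1.62, adjusted P = 0.047).

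At 2 weeks Kctd4 in input was at 45.3, 56.5 and 57.7 CPM in PBS mice 2, 3 and 4. The 6 KA mice ranged from 32.2 to 45.7 CPM with a median of 38.7, and only KA mouse 21 overlapped the PBS range. KA over PBS gave -0.43 on the log2 scale (SE 0.15, adjusted P = 0.277). In m6A at 2 weeks the 5 PBS libraries ran from 63.2 to 102 CPM (median 68.0) and the 6 KA libraries from 30.1 to 74.4 CPM (median 56.0), with overlap, and the log2 fold change was -0.37 (SE 0.26, adjusted P = 0.875).

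The change of the KA effect from 24 h to 2 weeks was tested as an interaction. For Kctd4 in input it was 1.04 on the log2 scale (SE 0.30), toward a smaller deficit at 2 weeks, and for Rgs14 it was 1.31 (SE 0.38). Pou3f1 followed with 0.94 (SE 0.41). These 3 markers were the ones past an unadjusted P of 0.05 in that direction, against 1.48% of all genes, and their adjusted P was 0.9999. The interaction called 0 of 17644 genes in input (0.0%) and 1 of 17440 in m6A (0.00573%), which was none of the 10. All 10 markers had an input interaction above 0, with a median of 0.83, while the median over all genes was -0.17. With scaling by library size alone the median over all genes was 0.12, and that scaling also shifts the values of the markers. In m6A 6 of the 10 were above 0, and none passed an unadjusted P of 0.05. The input interactions all take their 24 h effect from PBS mouse 1 as the only PBS library. Its Rgs14 (32.4 CPM) and Pou3f1 (21.3 CPM) lay above the PBS inputs at 2 weeks, which reached 18.0 and 11.99 CPM. Its Kctd4 (53.0 CPM) lay inside their range of 45.3 to 57.7 CPM. What part this library had in the interactions was not tested.

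**Figure D2:**
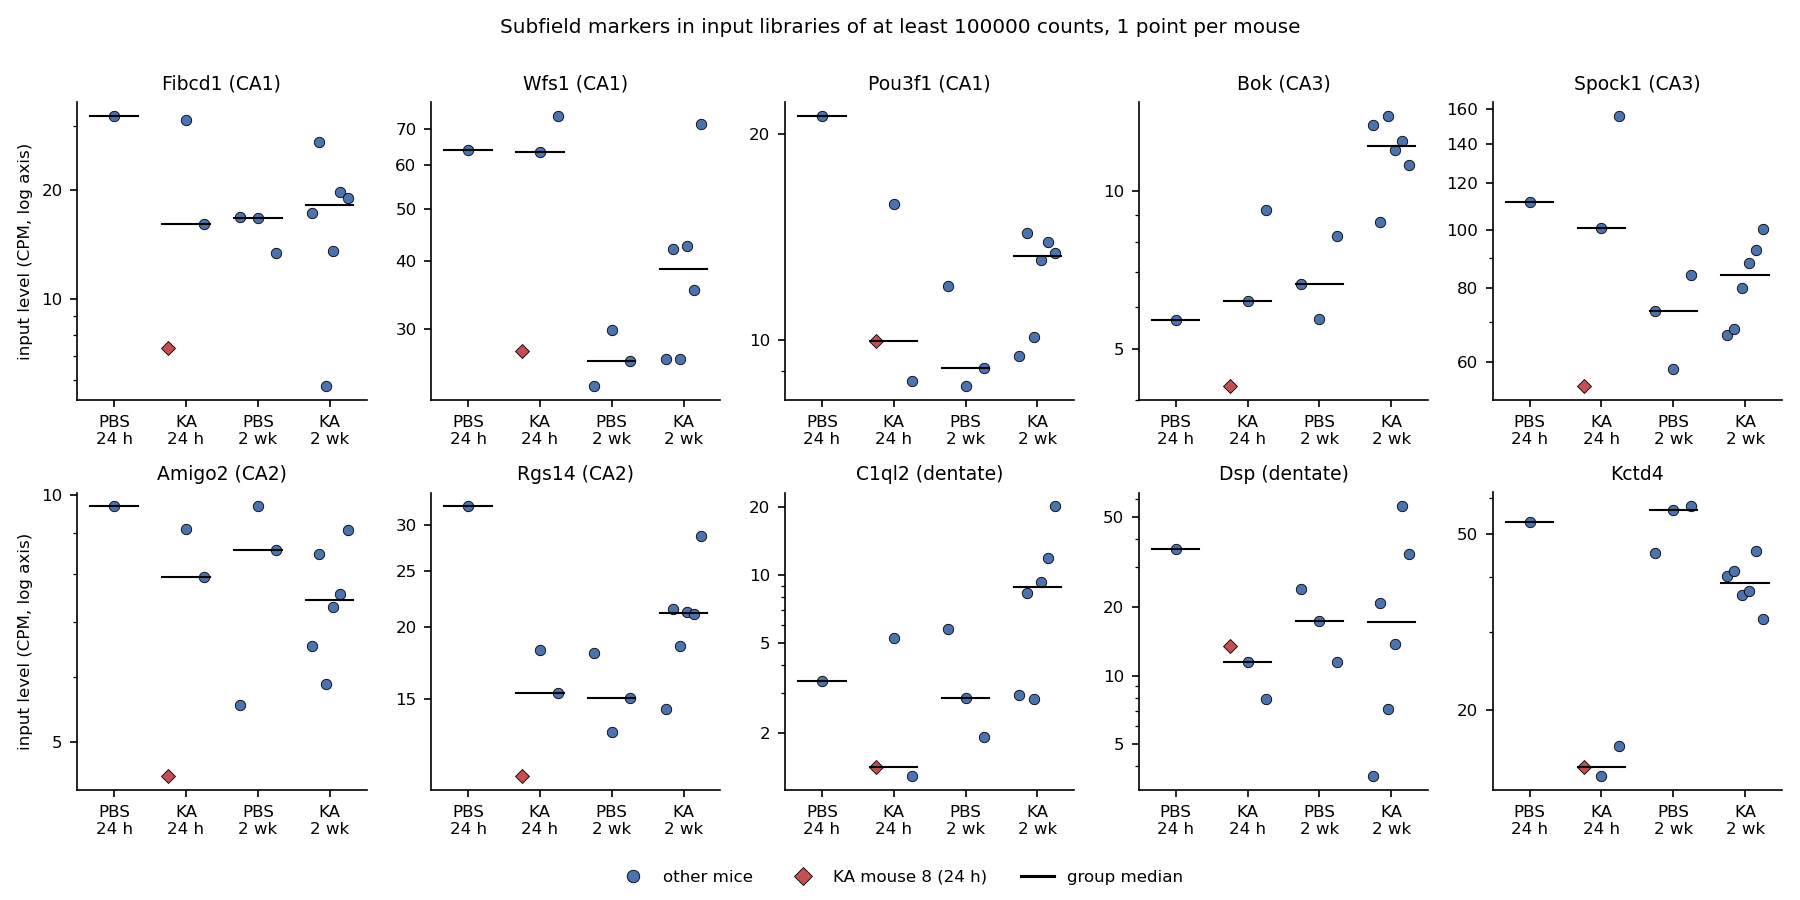
Level of each marker in the input libraries of at least 100000 counts, in CPM on a log axis, with 1 point per mouse, the group median as a line and KA mouse 8 as a diamond. The 3 KA points of Kctd4 at 24 h lie between 14.2 and 16.6 CPM and every other Kctd4 point at 32.2 CPM or above, and the 6 KA points of Bok at 2 weeks lie above the 3 PBS points.

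Dsp and C1ql2 mark the granule cells of the dentate gyrus. Dsp encodes desmoplakin, which ties intermediate filaments to desmosomes, and C1ql2 encodes a secreted C1q-like protein of mossy fibre synapses. In the mouse genome (RefSeq, build GRCm38.p6) Dsp lies at chr13:38151294-38198577 and C1ql2 at chr1:120340582-120343174, both on the plus strand. The 150 bases before their start sites are printed because both genes were high in the same m6A libraries. These were the PBS libraries of set 4 and those of KA mice 42 and 21 at 2 weeks. Whether the genes share regulation was not tested. Capitals mark the GC box, GGGCGG on either strand, and stretches of it do not overlap.
Dsp, chr13:38151144-38151293, plus strand: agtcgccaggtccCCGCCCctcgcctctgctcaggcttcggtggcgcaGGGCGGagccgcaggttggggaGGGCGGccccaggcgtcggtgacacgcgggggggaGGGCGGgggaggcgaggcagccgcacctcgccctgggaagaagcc
C1ql2, chr1:120340432-120340581, plus strand: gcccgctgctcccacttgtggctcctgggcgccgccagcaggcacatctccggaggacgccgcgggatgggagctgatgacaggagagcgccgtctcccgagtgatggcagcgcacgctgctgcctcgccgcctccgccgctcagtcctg
The window of Dsp holds 4 GC boxes and that of C1ql2 holds 0, while 28.6% of 32851 windows of the same length hold at least 1. None of the other motifs searched on both strands (the E-boxes CACGTG and also CAGCTG, the TATA box TATAAA, the CRE TGACGTCA and its inner part TGACG, the AP-1 motif TGANTCA, and the CCAAT box) is in either window. Of the 10 markers, 7 had a window in the table used, and Pou3f1, Rgs14 and Kctd4 had none.

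Dsp in m6A at 24 h was at 133, 144 and 41.7 CPM in PBS mice 71, 73 and 1 and at 13.6, 11.5, 48.3, 86.0 and 12.6 CPM in KA mice 67, 98, 97, 79 and 8. The values of both groups overlap only because PBS mouse 1, of library set 5, lay below KA mice 97 and 79, of set 4. The log2 fold change was -1.67 (SE 0.65, adjusted P = 0.822), and without single libraries it ran from -2.34 (without KA mouse 79) to -1.33 (without PBS mouse 73). Within set 4, with PBS mice 71 and 73 against KA mice 97 and 79, it was -1.17 (SE 0.28, adjusted P = 0.094), and with the set as a block -1.17 (SE 0.34, adjusted P = 0.743). C1ql2 was at 30.3, 23.7 and 6.86 CPM in the same PBS mice and at 5.05, 3.02, 16.5, 11.9 and 2.08 CPM in the same KA mice. The PBS libraries of set 4 were again the highest, and the KA libraries of set 3 the lowest. The C1ql2 log2 fold change was -1.40 (SE 0.62, adjusted P = 0.914) over all libraries and -1.05 (SE 0.21, adjusted P = 0.058) within set 4.

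Input at 24 h gave Dsp at 36.3 CPM in PBS mouse 1 and at 11.5, 7.93 and 13.5 CPM in KA mice 67, 98 and 8. All 3 KA libraries were below the PBS library, and the log2 fold change was -1.41 (SE 0.43, adjusted P = 0.991). The PBS library, which stood apart in several marker lists, was also above the 3 PBS inputs at 2 weeks, at 11.5 to 24.0 CPM, and what part this had in the result was not tested. C1ql2 was at 3.39 CPM in PBS mouse 1 and at 5.27, 1.28 and 1.41 CPM in the KA mice, on as few as 5 counts in a library. Its log2 fold change was -0.09 (SE 1.08), with the PBS library inside the range of the KA mice.

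At 2 weeks C1ql2 and Dsp differed more between mice of 1 group than between groups. C1ql2 in input was at 5.77, 2.85 and 1.92 CPM in PBS mice 2, 3 and 4, while the 6 KA mice ran from 2.81 to 20.3 CPM with a median of 8.84. KA mice 42 and 21 were the highest (20.3 and 11.97 CPM) and KA mice 7 and 5 the lowest (2.81 and 2.94 CPM). The log2 fold change was 1.43 (SE 0.64, adjusted P = 0.350). Without single libraries it ran from 1.08 to 1.94, and among the 6 inputs whose columns name no assay (PBS mice 2, 3 and 4 and KA mice 42, 21 and 5) it was 1.82 (SE 0.61, adjusted P = 0.221). Dsp in input was at 24.0, 17.4 and 11.5 CPM in the PBS mice and from 3.60 to 55.9 CPM in the KA mice, and its log2 fold change of 0.39 was smaller than its SE of 0.74. KA mice 21 and 42 were again the highest (55.9 and 34.3 CPM) and KA mice 5 and 7 the lowest (3.60 and 7.16 CPM).

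The same pair of KA mice was highest in the m6A libraries at 2 weeks. C1ql2 was at 35.8 and 22.5 CPM in KA mice 42 and 21 and at 6.11 CPM or below in the other 4. Dsp was at 89.7 and 40.7 CPM in KA mice 42 and 21 and at 10.5 CPM in KA mouse 5, the lowest. KA mouse 42 is in library set 3 and KA mouse 21 in set 5, so the high levels of these mice were not confined to 1 set. Below this pair the order for C1ql2 was not the same in both assays. KA mouse 6 was at 8.36 CPM in input and 2.34 CPM in m6A, the lowest m6A level among the KA mice at 2 weeks. KA mouse 5, near the lowest in input, was at 5.98 CPM in m6A. Mitochondrial transcripts took 17.5% of the m6A counts of KA mouse 6 and 4.25% of its input counts, and what part this had was not tested.

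**Figure D3:**
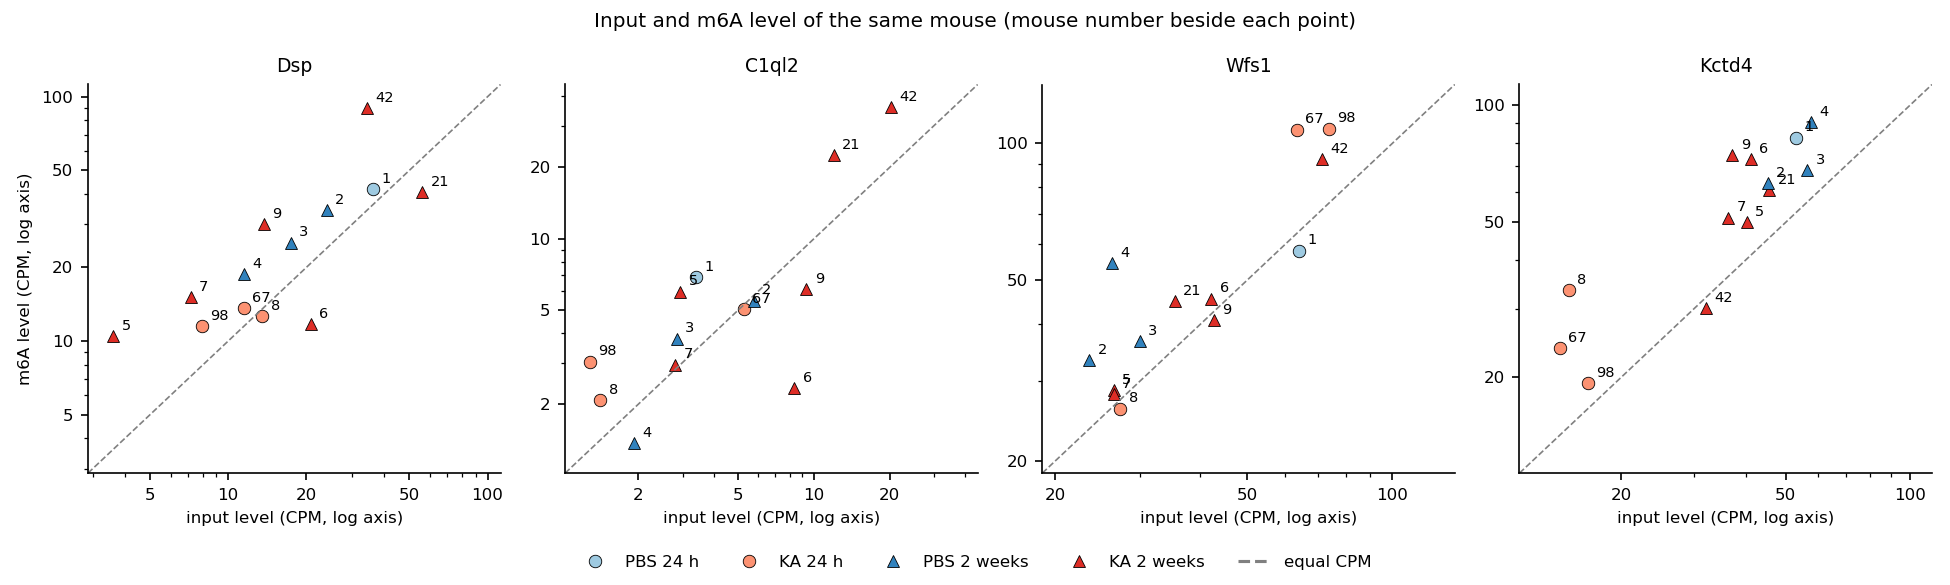
Input level (horizontal) and m6A level (vertical) of the same mouse for Dsp, C1ql2, Wfs1 and Kctd4, in CPM on log axes, with the mouse number beside each of the 13 mice that have both and a dashed line at equal CPM. KA mice 42 and 21 at 2 weeks stand at the upper right for C1ql2, at 20.3 and 11.97 CPM in input and 35.8 and 22.5 CPM in m6A, and KA mice 67, 98 and 8 at 24 h stand at the lower left for Kctd4.

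The PBS mice of library set 4 carried the highest dentate marker levels in m6A. Dsp was at 205 and 157 CPM in PBS mice 50 and 78 at 2 weeks, against 34.4, 25.3 and 18.8 CPM in PBS mice 2, 3 and 4 of set 5. C1ql2 was at 39.4 and 28.4 CPM in the former and at 5.47, 3.79 and 1.37 CPM in the latter. Over both times, the 4 PBS libraries of set 4 lay above the 4 other PBS libraries without overlap in 6 of the 10 markers (Fibcd1, Pou3f1, Spock1, Amigo2, C1ql2 and Dsp), and 19% of all 17440 genes did so. The gap was widest for C1ql2, with 23.7 CPM or more in set 4 and 6.86 CPM or less in the others, and for Dsp, with 133 CPM or more against 41.7 CPM or less. Kctd4, Bok, Wfs1 and Rgs14 overlapped. The inputs of PBS mice 71 and 73 were under 100000 counts and no input of PBS mice 50 and 78 was analysed here, so no input level is given for these 4 mice.

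This imbalance bears on the 2-week m6A comparison, in which set 4 holds PBS libraries alone. Over all 11 libraries 8 of the 10 markers lay below 0, with Dsp at -1.35 (SE 0.68), Pou3f1 at -0.80 (SE 0.51), Fibcd1 at -0.75 (SE 0.46), Amigo2 at -0.62 (SE 0.30) and C1ql2 at -0.26 (SE 0.82). Their adjusted P was 0.875 or above. Within set 5, with 3 KA and 3 PBS mice, Dsp was at 0.22 (SE 0.38), Pou3f1 at 0.55 (SE 0.44), Fibcd1 at 0.02 (SE 0.52), Amigo2 at 0.04 (SE 0.33) and C1ql2 at 1.63 (SE 0.73, adjusted P = 0.956). Spock1 likewise went from -0.32 (SE 0.24) to 0.10 (SE 0.21). For these 6 markers the sign in m6A at 2 weeks therefore differed between all libraries and set 5, which also leaves out the KA mice of set 3. C1ql2 over all libraries was within its own SE of 0, as were Dsp, Fibcd1, Amigo2 and Spock1 within set 5. Kctd4 stayed below 0, at -0.17 (SE 0.24) within set 5. For Wfs1, Rgs14 and Bok the value over all libraries was within its own SE of 0.

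**Figure D4:**
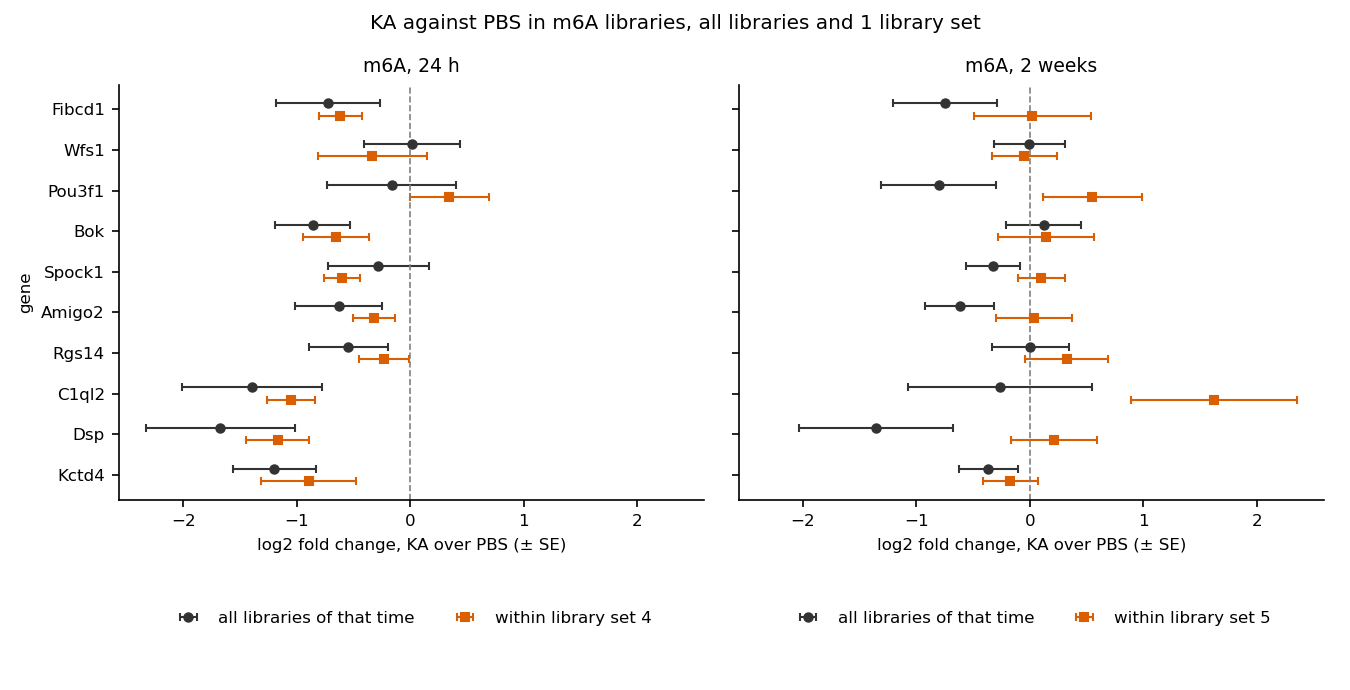
Log2 fold change of KA over PBS in m6A libraries with its standard error, over all libraries of a time (circles) and within a single library set (squares), for set 4 at 24 h and set 5 at 2 weeks. At 24 h Dsp, C1ql2 and Kctd4 stay below 0 within set 4, and at 2 weeks Dsp, Fibcd1, Pou3f1, Amigo2, Spock1 and C1ql2 cross from below to above 0 within set 5.

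Bok, a BCL-2 family protein, gave the only set of values at 2 weeks in which the groups did not overlap. In input it was at 6.66, 5.70 and 8.22 CPM in PBS mice 2, 3 and 4 and at 8.73 to 13.9 CPM (median 12.2) in the 6 KA mice. All KA libraries were above all PBS libraries, which 2.64% of the 13752 genes tested also showed. The log2 fold change was 0.80 (SE 0.20, adjusted P = 0.242), a 1.74-fold difference in level. It stayed between 0.72 and 0.96 without single libraries and was 0.88 (SE 0.23, adjusted P = 0.185) among the inputs whose columns name no assay. In m6A at 2 weeks Bok was at 5.46 to 13.1 CPM in the 5 PBS mice (median 5.62) and at 3.07 to 10.7 CPM in the 6 KA mice (median 8.53), with overlap, and the log2 fold change was 0.12 (SE 0.33). At 24 h the m6A level was 11.0, 5.87 and 7.82 CPM in PBS mice 71, 73 and 1 and 3.54, 4.23, 6.31, 5.38 and 3.04 CPM in KA mice 67, 98, 97, 79 and 8. Only KA mouse 97 was above the lowest PBS mouse, and the log2 fold change was -0.86 (SE 0.33, adjusted P = 0.804). The change between times in m6A was 0.97 (SE 0.48). Bok in input at 24 h was at 5.67 CPM in PBS mouse 1 and 4.24 to 9.21 CPM in the 3 KA mice, with a log2 fold change of 0.45 (SE 0.56).

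Spock1, which encodes the proteoglycan testican-1, showed no difference beyond the spread between mice when all libraries of a time were compared. Its input level at 24 h was 112 CPM in PBS mouse 1 and 101, 156 and 54.6 CPM in KA mice 67, 98 and 8, so that the PBS library lay inside the KA range. At 2 weeks it was at 71.9 ± 12.9 CPM in PBS mice (SD, n = 3) and 82.7 ± 13.6 CPM in KA mice (SD, n = 6), a log2 fold change of 0.23 (SE 0.16). Spock1 in m6A at 24 h was at 225, 182 and 102 CPM in PBS mice 71, 73 and 1 and at 197, 213, 159, 131 and 35.0 CPM in KA mice 67, 98, 97, 79 and 8. Over all libraries the groups overlapped, with a value of -0.28 (SE 0.44). Within set 4, where PBS mice 71 and 73 lay above KA mice 97 and 79, the value was -0.60 (SE 0.16, adjusted P = 0.102). KA mouse 8 had the lowest Spock1 level of all libraries in both assays, 54.6 CPM in input and 35.0 CPM in m6A.

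Among the CA1 markers, Wfs1 encodes wolframin, a membrane protein of the endoplasmic reticulum. In input at 2 weeks Wfs1 was at 23.5, 29.9 and 26.2 CPM in PBS mice 2, 3 and 4 and at 26.5 to 71.5 CPM (median 38.8) in the KA mice. KA mouse 42 was far above the rest at 71.5 CPM, KA mice 9 and 6 followed at 42.6 and 42.2 CPM, and KA mice 5 and 7 lay within the PBS range. KA over PBS gave 0.65 on the log2 scale (SE 0.31, adjusted P = 0.373). At 24 h Wfs1 was at 64.0 CPM in PBS mouse 1 and at 63.5, 74.0 and 27.3 CPM in KA mice 67, 98 and 8, a log2 fold change of 0.03 (SE 0.55). Wfs1 in m6A at 24 h was at 43.6, 103.9 and 58.1 CPM in PBS mice 71, 73 and 1 and at 107.1, 107.7, 68.1, 61.7 and 26.1 CPM in KA mice 67, 98, 97, 79 and 8. KA mice 67 and 98, the shallowest m6A libraries, were the highest and KA mouse 8 the lowest. The m6A log2 fold change was 0.02 (SE 0.43) at 24 h and -0.00 (SE 0.31) at 2 weeks.

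Fibcd1, which encodes a membrane protein with a fibrinogen domain, was at 32.1 CPM in the input of PBS mouse 1 and at 31.3, 16.1 and 7.36 CPM in KA mice 67, 98 and 8. The KA mice spread over a wider range than the distance of their median from the PBS level, and the log2 fold change was -0.57 (SE 0.72). At 2 weeks the input level was 15.7 ± 1.958 CPM in PBS mice (SD, n = 3) and 17.1 ± 7.12 CPM in KA mice (SD, n = 6). KA mouse 7 was the lowest at 5.75 CPM, and it was also the lowest KA mouse in m6A at 5.56 CPM. In m6A at 24 h, within set 4, Fibcd1 was at 46.7 and 37.5 CPM in PBS mice 71 and 73 and at 34.1 and 25.6 CPM in KA mice 97 and 79, a difference of -0.62 on the log2 scale (SE 0.19, adjusted P = 0.140).

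Pou3f1, a POU-domain transcription factor, had high m6A levels in library set 4 in both treatments, at 47.3 and 42.0 CPM in KA mice 79 and 97 and 41.8 and 22.2 CPM in PBS mice 73 and 71 at 24 h and 52.1 and 43.7 CPM in PBS mice 50 and 78 at 2 weeks. PBS mouse 71 overlapped the other sets, where KA mouse 21 of set 5 was the highest at 22.6 CPM. Its log2 fold change at 24 h was -0.16 (SE 0.57) in m6A and -0.61 (SE 0.43) in input, where PBS mouse 1 was at 21.3 CPM and the KA mice at 15.8, 8.70 and 9.99 CPM. All 3 KA mice were lower than the PBS mouse. At 2 weeks in input the PBS mice were at 11.99, 8.55 and 9.09 CPM and the KA mice at 9.48 to 14.3 CPM, with a log2 fold change of 0.37 (SE 0.21).

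**Figure D5:**
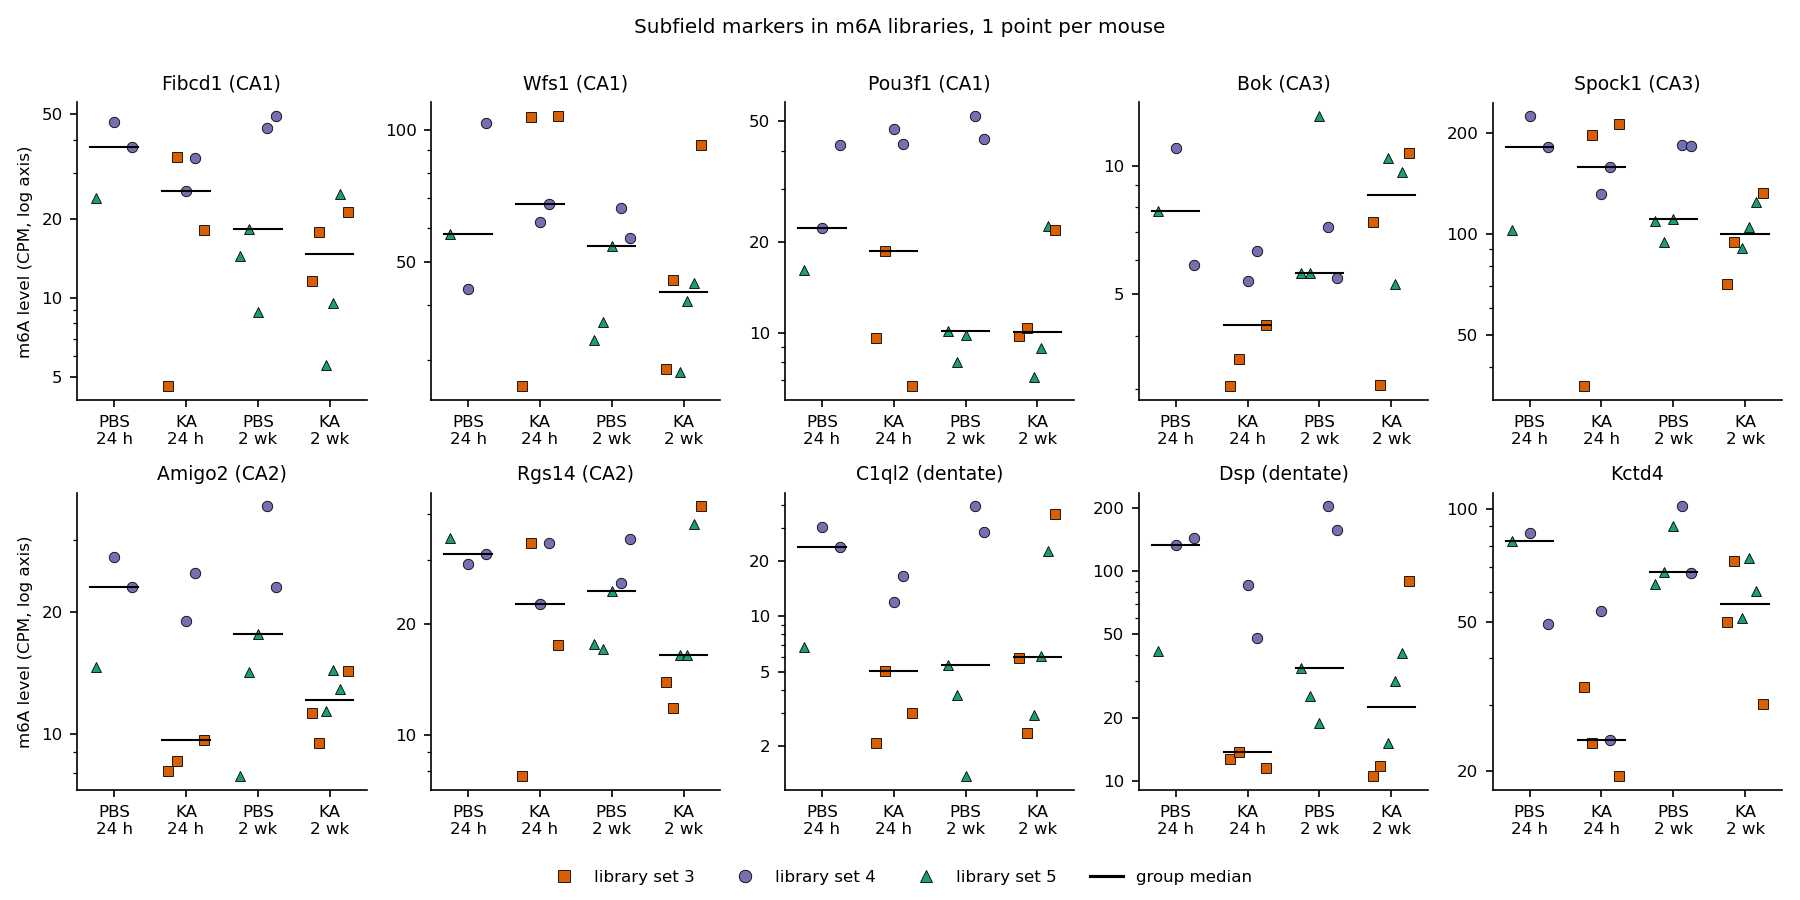
Level of each marker in the 19 m6A libraries, in CPM on a log axis, with 1 point per mouse, the library set as colour and shape, and the group median as a line. For C1ql2, Dsp, Pou3f1 and Fibcd1 the PBS circles of library set 4 lie above the PBS triangles of set 5, and for Dsp at 24 h the 3 KA squares lie at 13.6 CPM or below.

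The CA2 marker Rgs14, a regulator of G protein signalling that limits synaptic plasticity in CA2 neurons, was at 32.4 CPM in the 24 h input of PBS mouse 1 and at 18.2, 15.4 and 11.0 CPM in KA mice 67, 98 and 8. All 3 KA libraries were lower, and the log2 fold change was -0.86 (SE 0.35, adjusted P = 0.991). At 2 weeks Rgs14 in input was at 18.0, 13.1 and 15.0 CPM in PBS mice and at 14.4 to 28.7 CPM (median 21.1) in KA mice, a difference of 0.48 on the log2 scale (SE 0.21, adjusted P = 0.335). Of the 6 KA mice only KA mouse 5 was below the highest PBS mouse. PBS mouse 1 at 24 h, at 32.4 CPM, was above every input library at 2 weeks, PBS and KA alike. In m6A the Rgs14 log2 fold change was -0.55 (SE 0.35) at 24 h and 0.00 (SE 0.34) at 2 weeks.

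Amigo2, an adhesion molecule with leucine-rich repeats, was at 9.69 CPM in the input of PBS mouse 1 and at 9.09, 7.93 and 4.54 CPM in the KA mice at 24 h, and at 7.94 ± 2.14 CPM (SD, n = 3) in PBS and 7.47 ± 1.18 CPM (SD, n = 6) in KA mice at 2 weeks. The log2 fold change in input was -0.18 (SE 0.49) at 24 h and -0.06 (SE 0.25) at 2 weeks. In m6A at 24 h the PBS mice were at 27.3, 23.0 and 14.6 CPM and the KA mice at 8.09 to 24.95 CPM, with the 2 KA mice of set 4 at 18.97 and 24.95 CPM and the 3 of set 3 at 9.68 CPM or below.

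Other markers of the same cells were read alongside. In 4 lists of further subfield markers, the 8 CA1, 8 CA2, 8 CA3 and 12 dentate genes, no gene passed an adjusted P of 0.05 in any of the 4 comparisons of KA with PBS. At 24 h in m6A the median log2 fold change was -0.68 over the 10 markers, -0.37 over the CA1 list, 0.58 over the CA2 list, -0.61 over the CA3 list and -0.37 over the dentate list, beside 0.08 over all genes. At 24 h in input it was -0.37 over the 10 markers, -0.79 (CA1), 0.35 (CA2), 0.15 (CA3) and -0.32 (dentate), where all genes had a median of 0.30. With scaling by library size alone the median over all genes was 0.02. That scaling also shifts the marker values, which are not given for it here. At 2 weeks in input it was 0.38 over the 10 markers, -0.21 (CA1), -0.07 (CA2, 7 genes tested), 0.09 (CA3, 7 genes tested) and 0.24 (dentate), beside 0.02 over all genes. At 2 weeks in m6A it was -0.35 over the 10 markers and between -0.21 and 0.09 in these lists, beside -0.00 over all genes. A further list of 4 mossy cell markers had a median above 0 in each comparison, and none of its genes passed an adjusted P of 0.05. The median was 0.52 in m6A and 0.59 in input at 24 h. At 2 weeks it was 0.30 in m6A and 0.16 in input (3 genes tested). Its highest sum in both assays was that of KA mouse 8 at 24 h.

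Excitatory neuron markers lay on the same side of 0 as most subfield markers in m6A, and their part in these results was not tested. At 24 h in m6A the 8 excitatory neuron markers were all below 0, with a median log2 fold change of -0.42 and summed levels of 3173 to 6129 CPM in PBS and 1129 to 4348 CPM in KA mice. Within set 4 the sums were 6129 and 5519 CPM in PBS and 3782 and 3929.6 CPM in KA mice. At 2 weeks in m6A all 8 were again below 0, with a median of -0.41 and sums of 2488 to 6480 CPM in PBS and 2187 to 4202 CPM in KA mice. The high PBS sums were those of set 4, at 6480 and 6044 CPM, and within set 5 the sums overlapped, at 2488 to 3097 CPM in PBS and 2385 to 3744 CPM in KA mice. In input at 24 h their median was -0.10, and their sums were 3334 CPM in PBS mouse 1 and 1143, 2858 and 3453 CPM in the KA mice from lowest to highest. The 8 markers of neurons in general were all below 0 there, with a median of -0.44, and 7 of the 8 inhibitory neuron markers were, with a median of -0.40, against PBS mouse 1, which had the highest sums of both lists. The 8 endothelial cell markers were all above 0 in input at 24 h, with a median of 1.71, also against PBS mouse 1 alone. Their summed level did not separate the groups. It was 909 CPM in PBS mouse 1, inside the range of 473 to 1219 CPM in the KA mice, where KA mouse 8 was the highest. In input at 2 weeks the 8 astrocyte and 8 microglia markers were all above 0, each list with a median of 0.65. In each of these 2-week lists 3 of 8 were higher at an unadjusted P under 0.05, against 8.41% of all genes. The summed microglia level was 130 to 207 CPM in PBS and 191 to 416 CPM in KA mice. No gene of these lists was at 0 in a library used. Lists of neighbouring tissue were read as a check of the dissection. The choroid plexus list varied from 30.4 to 2369 CPM across m6A libraries, and the thalamus list from 220 to 553 CPM.

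How far each marker was pulled down by the m6A antibody was compared in PBS mice 2, 3 and 4 at 2 weeks, which have both libraries. Of 14168 genes 297 differed between m6A and input at an adjusted P under 0.05 (2.1%), and none of the 10 markers did, also with the mouse as a replicate block, which left 57 genes called. Their log2 ratios of m6A over input lay between -0.41 (Fibcd1, SE 0.28) and 0.48 (Amigo2, SE 0.38). Spock1 gave the smallest P, with a ratio of 0.30 (SE 0.16, adjusted P = 0.352). The change of this ratio with KA at 2 weeks was called in 0 of 15722 genes (0.0%), and no marker passed an unadjusted P of 0.05. The lowest P was that of Bok, at -0.81 (SE 0.47), and with the mouse as a replicate block it was -0.84 (SE 0.35, adjusted P = 0.875). In the longest coding transcript of each gene, GGACT, a core of the m6A consensus, occurs 0.519 times per kb in Dsp and 1.73 times in Bok, the lowest and highest of the 10, and the median over 21623 genes is 1.01.

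For each marker, the genes with the most similar log2 level across the 19 m6A libraries were listed among 17440 genes, as a description of libraries that also share library set and depth. C1ql2 ran closely with Neurod1 (Pearson r = 0.916) and Sall1 (0.916), and Dsp most closely with Mycn (0.938), Jph1 (0.928) and Fat4 (0.917). Pou3f1 ran with Bcl11b (0.953), Rhob (0.945) and Olfml2b (0.918). The nearest genes were Flywch1 for Fibcd1 (0.953), Pacsin1 for Spock1 (0.949), Smco3 for Kctd4 (0.911), Lats2 for Amigo2 (0.894), Abr for Rgs14 (0.872), Coasy for Wfs1 (0.847) and Dpp7 for Bok (0.817). Bok and Wfs1 had the weakest nearest neighbours of the 10.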

How the data were processed

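The deposited tables hold raw counts for each gene symbol in each sequencing lane, which the authors left without normalization. The labels name build mm10 and a stranded total RNA kit, with aligner, counting program and strand setting not given in the sources used here. Reads of genes that overlap or share sequence may be split. The 4 lanes of each library were summed (140 columns, 35 libraries). Another 8 columns belong to input libraries that the labels do not list and were not used. The assay is named in the columns of 8 libraries and was inferred for 27 from the numeric prefix that m6A columns carry. Mouse numbers and groups came from the labels. Input libraries under 100000 counts (3) were left out.

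Groups were compared in R 4.3.3 with edgeR 4.0.16: counts were scaled by TMM, filtered with filterByExpr on the groups, and fitted by robust quasi-likelihood. P-values were adjusted over all genes tested (Benjamini-Hochberg), with a threshold of 0.05. The fit was run on simulated counts that gave all genes the same spread and held no library sets or outlying mice. It therefore does not show how the fit handles those in these data. Alternatives were DESeq2 1.42.0, limma 3.58.1 voom with quality weights, library size scaling, other filters, all libraries in 1 fit, the library set or the mouse as a block, the shallow libraries included, and each library left out. Single library sets, the removal of 2 m6A libraries under 2000000 counts, and PBS inputs of both times were added after the data were seen. Tables and plots used Python 3.11.15, pandas 2.3.3 and matplotlib 3.10.9.

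The text names all 10 markers, list genes past the threshold (there were none in the comparisons of KA with PBS) and, for each marker, genes among the 3 with the highest Pearson correlation of log2 CPM (prior count 2). Not all of these genes are reported here. The markers and the lists were chosen with earlier results of these data known. The mouse number pairs input and m6A libraries because the labels give them the same animal. In 9 pairs at 2 weeks the deviations of the same mouse from its group means correlated at -0.026 to 0.502 (median 0.150). PBS mice 2, 3 and 4, used for m6A over input, were at 0.071, 0.092 and -0.026, and the KA pairs at 0.142 to 0.502. CPM intervals and floors cover counting error only.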

Additional observations from a re-analysis of the deposited data

Results flagged for a closer look

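Of the 40 groups of 4 to 10 libraries examined (10 markers in 4 groups), 3 held a library far from its neighbours by Dixon's criterion, and chance gives about 1 in 20. Wfs1 in the input of KA mouse 42 at 2 weeks was at 71.5 CPM, with the next library at 42.6 CPM. The m6A library of the same mouse was at 92.3 CPM for Wfs1, with the next at 45.6 CPM. Bok in the m6A library of PBS mouse 4 at 2 weeks was at 13.1 CPM, with the next at 7.17 CPM.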

How the results depend on the processing

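In m6A at 24 h, the count of genes called went from 1 to 3 with library size scaling, 156 with DESeq2, 22 without a low-count filter, 1121 with voom, 31 with all m6A libraries in 1 fit, 0 with the library set as a block, 356 within set 4, 0 without the 2 libraries under 2000000 counts, and 0 to 45 without single libraries, and voom called 3 of the 10 markers. In m6A at 2 weeks it went from 0 to 15 (DESeq2), 2 (no filter), 2 (voom), 1 (1 fit) and 0 to 1 without single libraries. In input at 24 h it went from 0 to 8 (DESeq2), 3 (no filter), 1482 (voom), 2783 (block), 75 (shallow libraries included), 160 (PBS of both times) and 0 to 1914 without single libraries, with 2 markers called by voom, 3 with the block (Kctd4, Dsp and Rgs14), 1 with PBS of both times and 0 to 2 without single libraries. The block there separates columns that begin with the word Input, and since KA mouse 8 is the one such library of these 4, it takes this mouse out of the comparison. In input at 2 weeks it went from 0 to 113 (DESeq2), 4 (no filter), 357 (voom) and 0 to 1 without single libraries, and no marker was called. The interactions with time gave 5 (DESeq2) and 2 (block) in m6A, and 4 (DESeq2) and 1 (shallow libraries included) in input. For m6A over input in PBS mice, 297 became 889 (library size), 901 (DESeq2), 57 with the mouse as a replicate block and 0 to 909 without single mice. Its change with KA went from 0 to 2 (DESeq2), 1 with the replicate block and 0 to 1 without single mice. The replicate block called no marker.

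Signs turned under several settings. In m6A at 24 h Wfs1 was -0.48 without the 2 shallow libraries, and Pou3f1 was 0.44 with voom and 0.35 within set 4. In m6A at 2 weeks the library set as a block gave 0.0065 (Fibcd1), 0.53 (Pou3f1), 0.084 (Spock1), 0.022 (Amigo2), 1.60 (C1ql2) and 0.20 (Dsp), and set 5 alone gave 0.024, 0.55, 0.10, 0.040, 1.63 and 0.22. In input at 24 h Pou3f1 was 0.066 with PBS inputs of both times. Other settings turned more values, each within its own SE over all libraries: Wfs1 and Pou3f1 in m6A at 24 h, Rgs14 in m6A at 2 weeks, Spock1, Wfs1, Amigo2, C1ql2 and Fibcd1 in input at 24 h, and Dsp and Amigo2 in input at 2 weeks. Leaving out 1 library turned the sign of 12 of the 40 marker values in the comparisons of KA with PBS, all 12 smaller than their own SE over all libraries. The furthest were C1ql2 at 0.39 (m6A, 2 weeks, without PBS mouse 50) and Pou3f1 at 0.37 (m6A, 24 h, without PBS mouse 73). In input at 24 h C1ql2 reached 0.24 and Spock1 -0.23 (without KA mouse 98), and in input at 2 weeks Dsp reached -0.10 (without KA mouse 21). The cause was not tested. The input comparison at 24 h and the input interaction could not be fitted without PBS mouse 1, the only deep PBS library.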
